A study of Mus musculus with 12 samples.

Results

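Glutamate and GABA receptors were read as 35 genes, chosen by their gene symbol from the 54833 genes of the count table. They were 4 subunits of AMPA receptors, 7 of NMDA receptors and 5 of kainate receptors, 7 metabotropic glutamate receptors, 10 subunits of GABA-A receptors and 2 of GABA-B receptors. Of these, 33 had enough reads to be tested. *Gabra6* had 0 to 2 counts per sample and *Grm6* 0 to 3, so that both stayed untested, and a count of 0 allows up to 3 counts, or 0.0794 to 0.106 CPM (counts scaled to the library size) at the depth of these samples. The RNA came from the caudate putamen of male C57BL/6 mice at 24 h after surgery. Intracerebral hemorrhage (ICH) was induced with collagenase IV, which damages vessel walls, and sham mice had the same surgery with saline alone. Surgery and age gave 4 groups of 3 samples: sham and ICH in young mice of 8 to 10 weeks and in aged mice of 20 to 22 months, all wild-type. In ICH mice the tissue next to the hematoma on the injected side was dissected, and in sham mice the matching tissue. Each sample pooled more than 1 mouse, so that the spread between samples and the *P* values built on it refer to pools.

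Glutamate is the main excitatory transmitter of the brain and GABA the main inhibitory one. AMPA, NMDA and kainate receptors are cation channels that open when glutamate binds, GABA-A receptors are chloride channels, and metabotropic glutamate receptors and GABA-B receptors signal through G proteins. The subunit that a gene encodes sets how long the channel stays open, which ions pass and where on the cell it sits. The striatum, to which the caudate putamen belongs, receives glutamate from the cortex and the thalamus, and nearly all of its own neurons release GABA.

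Promoter sequence is given for 3 genes, because their RNA was called lower in ICH at both ages and they stand for different receptor classes: *Gabrb2* had the lowest log2 fold change (log2FC) of the tested members at both ages, *Grik3* was the kainate subunit called at both ages, and *Gabbr1* was the member with the highest level. Each line holds the 250 bases before the RefSeq start of transcription (GRCm38.p6, plus strand, 5′ to 3′). Capitals mark a GC box, the letters GGGCGG on either strand, which factors of the Sp family can bind. None of these windows touched an annotated exon. For *Gabrb2*, which has 3 listed starts, the first one listed was taken. Its window lies inside the gene as annotated by GENCODE vM21, which starts at 42419757 on the plus strand of chromosome 11.
Gabrb2 (chr11:42420190-42420439): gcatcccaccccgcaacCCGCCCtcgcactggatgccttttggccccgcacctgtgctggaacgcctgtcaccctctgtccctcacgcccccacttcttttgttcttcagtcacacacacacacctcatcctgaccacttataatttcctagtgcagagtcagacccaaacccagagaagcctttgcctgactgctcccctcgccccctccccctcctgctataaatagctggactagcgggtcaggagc
Grik3 (chr4:125490446-125490695): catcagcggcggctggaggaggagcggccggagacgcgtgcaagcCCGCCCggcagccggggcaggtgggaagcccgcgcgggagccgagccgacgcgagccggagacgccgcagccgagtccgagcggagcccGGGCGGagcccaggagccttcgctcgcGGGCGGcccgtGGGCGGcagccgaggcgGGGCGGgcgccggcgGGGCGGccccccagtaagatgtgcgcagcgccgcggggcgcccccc
Gabbr1 (chr17:37045716-37045965): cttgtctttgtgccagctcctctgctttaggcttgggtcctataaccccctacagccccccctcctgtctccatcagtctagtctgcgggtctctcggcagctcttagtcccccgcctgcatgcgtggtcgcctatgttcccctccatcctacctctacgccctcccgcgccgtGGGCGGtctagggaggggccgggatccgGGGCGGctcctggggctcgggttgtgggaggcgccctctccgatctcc
The *Grik3* window was 82.0% G and C with 6 GC boxes, the *Gabbr1* window 66.0% with 2 and the *Gabrb2* window 58.8% with 1. RefSeq listed a promoter for 26 of the 35 members. A GC box lay before at least 1 start of 14 of the 26, against 35.4% of the 27025 genes in the table. The letters TGACG, the core of the CRE site of CREB, were found in 2 of the 26, against 19.8% of all genes, and TTCAGCACC, part of the RE1 site of REST, in 1, against 0.348%. Both strands were searched, none of these motifs holds another, and a match is a description of the sequence only. Among the 13 members with a listed promoter that were called lower in the young ICH group, 7 held a GC box.

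The samples held 28410896 to 37785160 counts. Striatal projection neurons, the main neurons of the caudate putamen, were present in every sample by their defining markers: *Ppp1r1b* ranged from 34.9 to 192 FPKM and *Drd1* from 4.02 to 34.7. FPKM are fragments scaled to transcript length and to library size, so that levels of different genes can be set side by side. The summed FPKM of 12 projection neuron genes varied within groups, with 875, 546 and 515 in the young sham samples 1 to 3, 399, 165 and 574 in the young ICH samples, 663, 820.3 and 461 in the aged sham samples and 128, 656 and 285 in the aged ICH samples. Young ICH sample 2 and aged ICH sample 1 were the lowest. Of these 12 genes 1, *Foxp1*, was called lower in ICH at each age, and their median log2FC was −0.91 in young and −1.09 in aged mice. The summed FPKM of 8 choroid plexus genes, led by the transthyretin gene *Ttr*, was 6.59 to 348 in 9 samples but 3209 in young ICH sample 3 and 1243 and 1589 in aged ICH samples 1 and 2. A sum of 9 leukocyte genes was 72.04 to 153 in young ICH against 14.4 to 19.9 in young sham samples and 102 to 131 against 11.03 to 38.8 in aged mice, with 7 of 9 called higher at each age. A sum of 9 astrocyte genes was 853 to 1047 against 524 to 586 and 902 to 998 against 582 to 718, with 4 called higher in young mice, and 3 higher and *Gja1* lower in aged mice. Among 12 pan-neuronal genes 3 were called lower in young and 0 in aged mice by edgeR (6 and 1 at an unadjusted *P* under 0.05), with medians of −0.22 and −0.18. Their log2FC was below 0 for 11 genes in young and all 12 in aged mice. In 5 of them in young and 8 in aged mice every ICH sample was below every sham sample, against 16.5% and 17.3% of all genes. Sums of 8 oligodendrocyte genes were 856 to 1131 in aged sham and 698 to 816 in aged ICH samples, with 4 called lower in aged mice, against 797 to 1360 and 934 to 1283 in young mice with none called by edgeR (0 also at an unadjusted *P* under 0.05). Markers of cortical excitatory neurons were also present in every sample. The sum of 8 such genes was 184 to 337 FPKM, lowest in young ICH sample 3, and *Slc17a7* alone was at 98.6 to 187 FPKM. Single genes were called in the lists of cortical neurons (*Nrn1* lower at both ages), thalamic and cerebellar neurons (*Lef1* higher in young mice) and oligodendrocyte precursors (*Gpr17* lower in aged mice), and *P2ry12* and *Siglech* of microglia were lower at both ages. The sum of 9 thalamic and cerebellar genes was 125 FPKM in young ICH sample 1 and 22.0 to 63.5 FPKM in the other samples. Of these 9, 4 were higher in young ICH mice with a fold change over 1.5 and unadjusted edgeR *P* under 0.05. Of all 21495 genes, 1861 were. The median log2FC of the 9 was 0.87 in young and −0.14 in aged mice. Of the young ICH samples, sample 1 was highest for 11 of the 33 tested members, among them *Gabra4*, *Gabrd*, *Grin2c*, *Grin2d* and *Grm4*. The part of these cell types in the results below was not tested, except where a result is given without the samples concerned. No gene of these lists was at 0 in any sample. Lower RNA of a receptor in such bulk tissue can come from fewer cells of a type or from less RNA per cell, and these cannot be told apart.

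**Figure D1:**
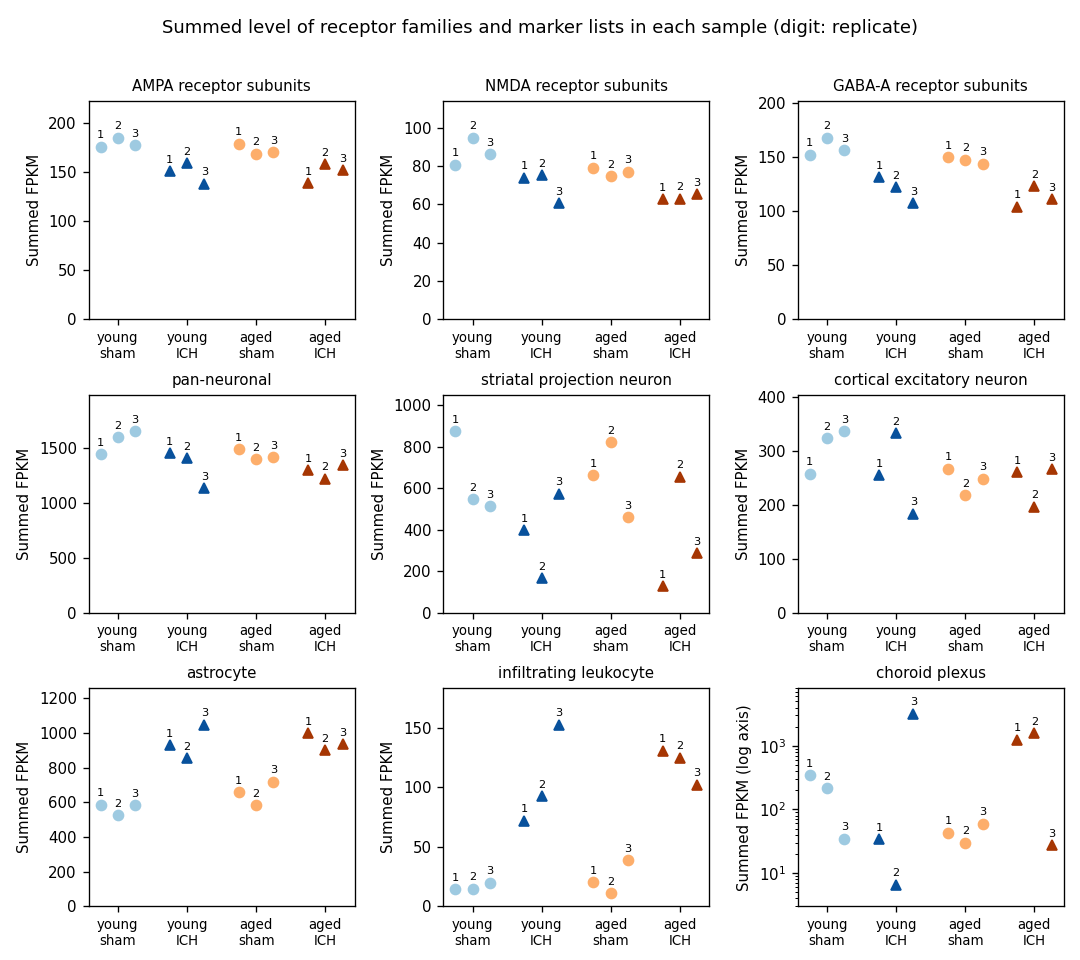
Summed FPKM of 3 receptor families and 6 marker lists in each of the 12 samples, with the replicate number beside each point. The AMPA, NMDA and GABA-A sums lie lower in all ICH samples than in the sham samples of the same age, while the projection neuron sum overlaps between sham and ICH and the choroid plexus sum (log axis) is far higher in 3 ICH samples.

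The levels of the receptor genes differed widely. *Gabbr1*, the GABA-binding GABA-B subunit, was highest with a mean of 92.1 FPKM over the 12 samples (75.8 to 106.9). *Gria1* followed with 61.8 FPKM (48.9 to 72.5) and *Gria2* with 55.1 FPKM (46.6 to 63.9), and the ranges of this pair overlapped. *Gabbr2* (40.5 FPKM), *Gabra3* (33.5), *Grik5* (32.7) and *Grin1* (31.6) came next and also overlapped with one another. The NMDA subunit *Grin2b* was at 17.0 FPKM and *Grin2a* at 13.2. Of the metabotropic receptors, *Grm5* (21.3 FPKM) and *Grm3* (16.7) led. The lowest 4 of the tested members were *Grik1* (1.74 FPKM), *Grin2d* (1.69), *Grm8* (1.26) and *Grin3b* (0.192), the last with at most 33 counts in a sample. *Gabra6*, a subunit of cerebellar granule cells, averaged 0.00794 FPKM, and *Grm6*, the receptor of retinal ON bipolar cells, 0.00503.

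**Figure D2:**
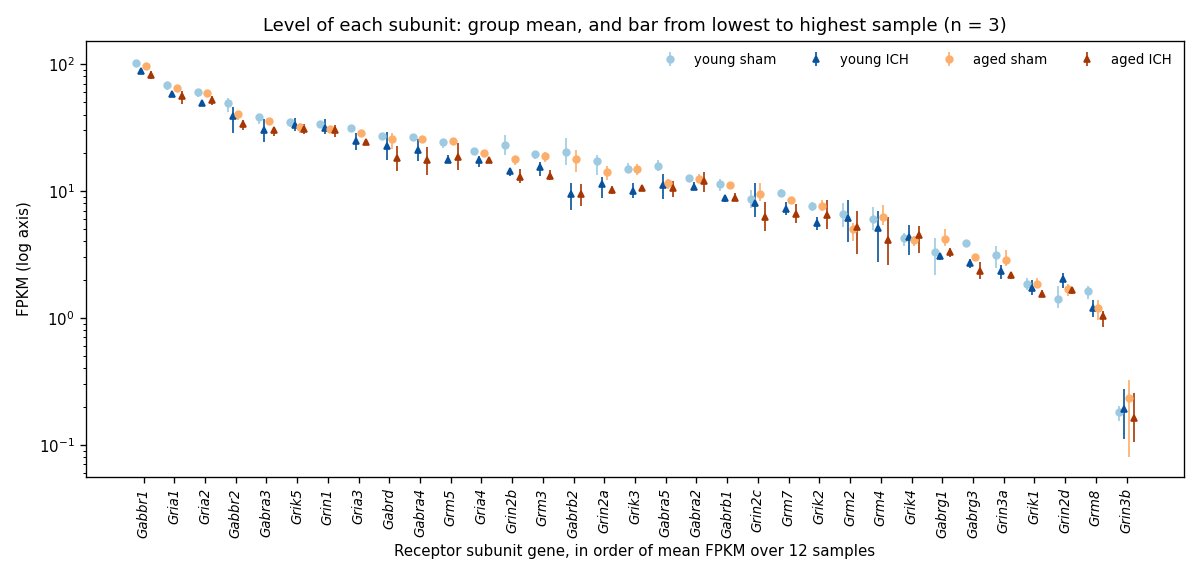
FPKM (log axis) of the 33 tested receptor subunit genes in order of their mean over the 12 samples, with the mean of each group and a bar from its lowest to its highest sample. Levels run from 92.1 for *Gabbr1* to 0.192 for *Grin3b*.

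Receptor subunits were broadly lower in ICH at both ages. In young ICH vs. young sham mice, 19 of the 33 tested members were called lower and 0 higher, at an adjusted *P* under 0.05 over all 21495 genes by edgeR. All genes gave 9.23% called lower and 9.89% called higher. In aged ICH vs. aged sham mice, 10 were called lower and 0 higher, against 6.15% and 7.00% of all genes. At an unadjusted *P* under 0.05 edgeR gave 22 lower and 1 higher in young mice and 20 lower and 0 higher in aged mice. In either direction, 23 of the 33 members in young and 20 in aged mice passed this threshold, against 7132 and 6216 of all 21495 genes. A count of all genes by direction is not given at this threshold. DESeq2 called 22 and 18 members lower and limma on FPKM 13 and 6, and neither called a member higher. Over all 21495 genes DESeq2 called 2554 and 1896 lower and limma 1078 and 727. DESeq2 called every member that edgeR called, and in addition *Gabra2*, *Gabra4* and *Gabbr2* in young mice and the 4 AMPA subunits, *Grin2a*, *Grin2c*, *Grin3a* and *Gabrd* in aged mice. In the accounts of single members, a call is edgeR's unless another tool is named. The median log2FC of the members was −0.41 in young and −0.33 in aged mice, against 0.02 and 0.00 for all genes tested, and 31 and 32 of the 33 had a log2FC below 0.

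Single samples showed the same direction. In 19 members every young ICH sample was below every young sham sample, which held for 16.5% of all genes, and in 21 members every aged ICH sample was below every aged sham sample, against 17.3% of all genes. The lowest of the 12 samples was an ICH sample for 30 members and the highest a sham sample for 31. Aged ICH sample 1 was the lowest of all for 12 members and young ICH sample 3 for 11. These counts of lowest and highest samples were not made over all genes, and they rest on the same values as the calls. By the DEG rule of the study, a FC < 0.67 with an unadjusted *P* under 0.05, 6 members were lower in young mice (*Grin2a*, *Grin2b*, *Grik3*, *Gabra5*, *Gabrb2* and *Gabrg3*), against 3.49% of all genes, and 4 in aged mice (*Grin2c*, *Grm3*, *Gabra4* and *Gabrb2*), against 2.82%. Receptor genes are long, with a median gene model length of 6686 bases. Of the 4020 tested genes at least that long, 22.3% were called lower in young and 15% in aged mice, with medians of −0.09 and −0.10.

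The counts moved with single samples. Without young sham sample 2 the young count of lower members was 5, and without young ICH sample 3 it was 10. The aged count was 2 without aged ICH sample 1 and 2 without aged ICH sample 3, 3, 4 and 6 without aged sham samples 1, 2 and 3, and 15 without aged ICH sample 2. In each of these fits the group left with a pair of samples shared the spread of the others. When the ICH samples with the lowest projection neuron sum (young ICH sample 2 and aged ICH sample 1) were both left out, a setting chosen after seeing the data, 18 members were called lower in young and 2 in aged mice. When the 3 ICH samples with a high choroid plexus sum were left out, also chosen after seeing the data, 11 were called lower in young mice. In aged mice this left 1 ICH sample, which was assumed to vary like the other groups, so that the single call there, *Grm5*, says little about the samples left out. The median log2FC of the members was −0.43 and −0.33 in the former setting and −0.33 and −0.44 in the latter.

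**Figure D3:**
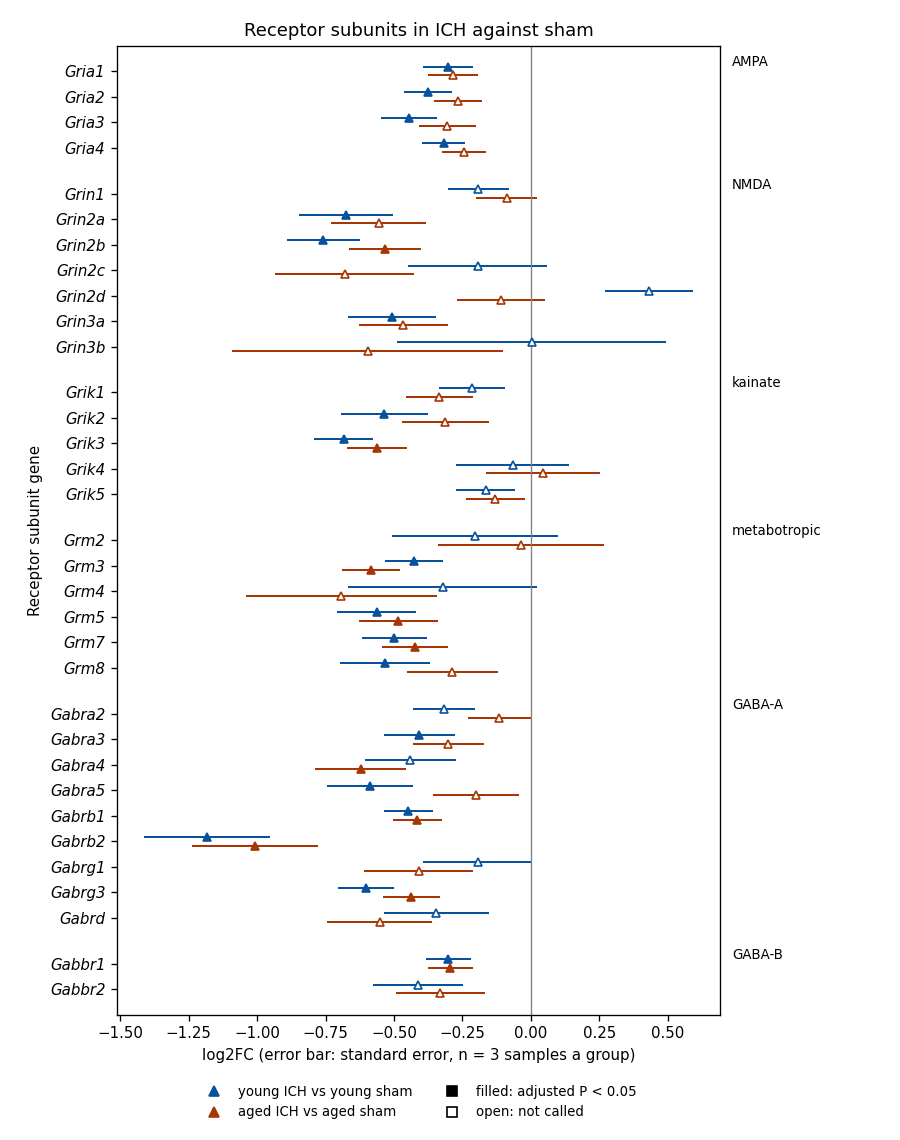
log2FC of the 33 tested receptor subunits in ICH against sham (x axis) for young mice (blue) and aged mice (brown), by receptor family, with the standard error and filled symbols for an edgeR adjusted *P* under 0.05. Nearly all points lie left of 0, and *Gabrb2* lies farthest left at both ages with −1.18 and −1.01.

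All 4 AMPA receptor subunits, the channels of fast excitatory transmission, were called lower in young ICH mice, with log2FC of −0.45 to −0.30. In aged mice their log2FC of −0.30 to −0.24 missed the threshold by edgeR, while DESeq2 called all 4 lower. *Gria1*, which encodes GluA1, was at 457, 432 and 395 CPM, here scaled to the normalized library size, in young sham samples 1 to 3 and at 363, 356 and 322 in young ICH samples. It was at 414, 406 and 372 CPM in aged sham and 285, 357 and 336 CPM in aged ICH samples. The groups did not overlap at either age. *Gria2* encodes GluA2, the subunit that keeps most AMPA channels closed to calcium, and its CPM were 888, 1041 and 979 in young sham and 731, 810.2 and 699 in young ICH samples. In aged mice they were 991, 906 and 918 in sham and 718, 837 and 786 in ICH samples, again without overlap. *Gria3* was at 298, 336 and 341 CPM in young sham against 234, 282 and 199.8 in young ICH samples, and at 295, 273 and 289 against 233, 228 and 233 in aged mice. *Gria4* was at 133, 139 and 136 CPM against 115, 118 and 94.5 in young and 134, 118 and 129.7 against 109, 103 and 110.3 in aged mice. All AMPA subunits were thus lower in each ICH sample than in each sham sample of the same age.

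In young mice *Gria3* fell by 26.6% (log2FC = −0.45 ± 0.10 (SE), edgeR adjusted *P* = 0.0133) and *Gria2* fell by 22.9% (log2FC = −0.38 ± 0.09 (SE), edgeR adjusted *P* = 0.0131). *Gria4* fell by 19.8% (log2FC = −0.32 ± 0.08 (SE), edgeR adjusted *P* = 0.0181) and *Gria1* fell by 18.9% (log2FC = −0.30 ± 0.09 (SE), edgeR adjusted *P* = 0.0396). In aged mice edgeR gave adjusted *P* of 0.0636 for *Gria1*, 0.0669 for *Gria2*, 0.0756 for *Gria3* and 0.0658 for *Gria4*. The 4 young calls were lost without young sham sample 2, with adjusted *P* of 0.0638 for *Gria2*, 0.0553 for *Gria3* and 0.0686 for *Gria4*. *Gria4* was also not called without young sham sample 3. *Gria1* was lost in 8 of the 12 fits without 1 sample (young ICH samples 1, 2 and 3, young sham samples 1 and 2, aged sham samples 1 and 2 and aged ICH sample 3), with an adjusted *P* of up to 0.123 without young ICH sample 3.

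Of the NMDA receptor subunits, *Grin2b* was called lower at both ages and *Grin2a* and *Grin3a* in young mice, while *Grin1*, which every NMDA receptor contains, was not called. *Grin2b* encodes GluN2B, a subunit with slow channel closing that also gathers signaling enzymes at the synapse. Its CPM were 499.7, 713 and 569 in young sham and 369, 368 and 316 in young ICH samples. In aged mice they were 478, 403 and 469 in sham and 278, 353 and 303 in ICH samples. ICH and sham samples did not overlap at either age, and *Grin2b* fell by 40.9% in young mice (log2FC = −0.76 ± 0.13 (SE), edgeR adjusted *P* = 0.00381) and fell by 30.9% in aged mice (log2FC = −0.53 ± 0.13 (SE), edgeR adjusted *P* = 0.024). The young call held without any single sample, whereas the aged call was lost without aged ICH sample 1 or 3 or aged sham sample 1 or 3, with an adjusted *P* of up to 0.109 without aged ICH sample 1.

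*Grin2a* encodes GluN2A, the faster subunit that predominates at mature synapses. It was at 248, 364 and 348 CPM in young sham against 222, 228 and 151 in young ICH samples and at 287, 221 and 266 against 175, 162 and 189.6 in aged mice. The groups did not overlap, and *Grin2a* fell by 37.4% in young mice (log2FC = −0.68 ± 0.17 (SE), edgeR adjusted *P* = 0.0199), while the aged value missed the threshold (log2FC = −0.56 ± 0.17 (SE), edgeR adjusted *P* = 0.0552). Without young sham sample 2 the young adjusted *P* was 0.0848, and the call was also lost without young sham sample 3 or young ICH sample 3. *Grin3a* encodes GluN3A, which lowers the calcium flow of the receptors it joins. It was at 47, 42 and 31.3 CPM in young sham and 28.6, 31.96 and 24.02 in young ICH samples, where young sham sample 3 lay just below young ICH sample 2. In aged mice its CPM were 32.4, 43.05 and 31.3 in sham and 26.7, 26.3 and 24.2 in ICH samples. Its young call (log2FC = −0.51 ± 0.16 (SE), edgeR adjusted *P* = 0.0464) had the highest adjusted *P* of the NMDA subunits called and was lost in 9 of the 12 fits without 1 sample (aged ICH samples 1, 2 and 3, aged sham samples 1 and 3, young ICH samples 1 and 3 and young sham samples 1 and 2), up to 0.153 without young sham sample 1.

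*Grin2d* went the other way in young mice without passing the threshold. Its CPM were 12.4, 8.72 and 8.21 in young sham and 14.9, 11.4 and 13.4 in young ICH samples (log2FC = 0.43 ± 0.16 (SE), edgeR adjusted *P* = 0.0801), and 10.1, 12.6 and 11.6 in aged sham and 11.2, 10.4 and 10.01 in aged ICH samples (log2FC = −0.11 ± 0.16 (SE), edgeR adjusted *P* = 0.7). Young sham sample 1 overlapped with the ICH samples. Without young ICH sample 2, or without young sham sample 1, *Grin2d* was called higher in young mice, with an adjusted *P* as low as 0.0143. *Grin2c*, the GluN2C gene, had log2FC of −0.19 in young and −0.68 in aged mice (edgeR adjusted *P* = 0.102 in aged mice), and its 3 aged ICH samples at 28.3, 39.3 and 23.4 CPM were below the aged sham samples at 43.03, 59.5 and 43.4 CPM. *Grin1* had log2FC of −0.19 and −0.09. *Grin3b* rested on 8 to 33 counts per sample, and its difference was not detectable at this depth.

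Among the kainate receptor subunits, *Grik3* was called lower at both ages and *Grik2* in young mice, and neither *Grik1* nor the high-affinity subunits *Grik4* and *Grik5* were called. *Grik3* encodes GluK3, whose channels need much glutamate to open. Its CPM were 136, 155 and 129.6 in young sham and 77.6, 102 and 82.04 in young ICH samples, and 149, 121 and 134 in aged sham and 93.9, 86.95 and 92.3 in aged ICH samples. All ICH samples were below all sham samples, across both ages. *Grik3* fell by 37.8% in young mice (log2FC = −0.68 ± 0.11 (SE), edgeR adjusted *P* = 0.00269) and fell by 32.2% in aged mice (log2FC = −0.56 ± 0.11 (SE), edgeR adjusted *P* = 0.00989). It was the only member called at both ages in every fit without 1 sample, with adjusted *P* of up to 0.0161 and 0.042.

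*Grik2* encodes GluK2, a main pore subunit of kainate receptors. It was at 113, 106 and 95.98 CPM in young sham and 72.3, 65.3 and 79.3 in young ICH samples (log2FC = −0.54 ± 0.16 (SE), edgeR adjusted *P* = 0.0376). In aged mice the groups overlapped, with 100.1, 115 and 92.7 CPM in sham and 64.5, 108 and 75.3 CPM in ICH samples (log2FC = −0.31 ± 0.16 (SE), edgeR adjusted *P* = 0.221), and aged ICH sample 2 lay within the range of the sham samples. The young call was lost in 7 of the 12 fits without 1 sample (each of the 6 young samples and aged sham sample 1), up to 0.102 without young ICH sample 2. *Grik5*, the most abundant kainate subunit, was at 199, 195 and 171 CPM in young sham, 162, 192 and 149 in young ICH, 175, 181 and 149 in aged sham and 140.3, 167 and 154 in aged ICH samples. These groups overlapped at both ages, with log2FC of −0.16 (95% interval −0.38 to 0.05) and −0.13 (−0.34 to 0.08). The log2FC of *Grik1* were −0.21 and −0.33 and those of *Grik4* −0.07 and 0.04.

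Of the 6 metabotropic glutamate receptors tested, 4 were called lower in young and 3 in aged mice. *Grm5* is the group I receptor that couples to Gq and raises calcium in the cell. It was at 271, 276 and 232 CPM in young sham and 169, 169 and 189 in young ICH samples, and at 265, 267 and 242 in aged sham and 143, 235 and 175 in aged ICH samples. Aged ICH sample 2 lay close to the lowest aged sham sample, and the groups did not overlap. *Grm5* fell by 32.3% in young mice (log2FC = −0.56 ± 0.14 (SE), edgeR adjusted *P* = 0.0201) and fell by 28.5% in aged mice (log2FC = −0.48 ± 0.14 (SE), edgeR adjusted *P* = 0.047). The young call was lost without young ICH sample 1 or 2 or young sham sample 1 or 2 (up to 0.0767, without young sham sample 2), and the aged call in 10 of the 12 fits without 1 sample, all but those without aged ICH sample 2 or young ICH sample 3 (up to 0.16, without aged ICH sample 1). The summed projection neuron markers had their lowest values in young ICH sample 2 and aged ICH sample 1 (165 and 128 FPKM), and their part in this result was not tested.

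*Grm3* is a group II receptor that lowers cAMP and is made by astrocytes as well as neurons. It was at 63.6, 65.7 and 56.8 CPM in young sham and 39.6, 48.9 and 49.99 in young ICH samples, and at 53.05, 62.8 and 57.6 in aged sham and 37.3, 42.9 and 35.7 in aged ICH samples. Every ICH sample was below every sham sample of both ages, and *Grm3* fell by 25.6% (log2FC = −0.43 ± 0.10 (SE), edgeR adjusted *P* = 0.0166) in young and fell by 33.2% (log2FC = −0.58 ± 0.11 (SE), edgeR adjusted *P* = 0.00784) in aged mice. The aged call held without any single sample, with an adjusted *P* of up to 0.0424, and the young call was lost without young sham sample 2 (adjusted *P* = 0.0709). The summed astrocyte markers were higher in every ICH sample than in every sham sample, but *Gfap* alone gave 490 of 998 FPKM in aged ICH sample 1. The median log2FC of these 9 genes was 0.26 in young and 0.05 in aged mice, with 1 and 3 of them below 0. The part of astrocytes in this result was not tested.

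*Grm7* is a group III receptor of release sites. It was at 56.96, 64.3 and 55.7 CPM in young sham and 47.3, 37.6 and 40.3 in young ICH samples, and at 51.5, 50.6 and 48.6 in aged sham and 31.9, 44.9 and 35.6 in aged ICH samples. It did not overlap between sham and ICH and fell at both ages, in young mice with log2FC = −0.50 ± 0.12 (SE), edgeR adjusted *P* = 0.0149 and in aged mice with log2FC = −0.42 ± 0.12 (SE), edgeR adjusted *P* = 0.0391. The young call was lost without young sham sample 2 (0.0692) or young ICH sample 3, and the aged call without any aged sample other than ICH sample 2 and without young sham sample 1 or 3, up to 0.158 without aged ICH sample 1. *Grm8*, another group III receptor, was at 17.1, 14.7 and 18.3 CPM in young sham and 9.86, 13.6 and 11.1 in young ICH samples, against 13.96, 9.70 and 12.3 and 10.8, 10.6 and 8.10 in aged mice, where the groups overlapped. Its young call (log2FC = −0.53 ± 0.17 (SE), edgeR adjusted *P* = 0.0436) was lost in 7 of the 12 fits without 1 sample (young sham samples 1, 2 and 3, young ICH samples 1 and 3, aged sham sample 3 and aged ICH sample 1), up to 0.135 without young ICH sample 1. *Grm2* and *Grm4* were not called, with log2FC of −0.20 and −0.32 in young and −0.04 and −0.69 in aged mice. *Grm4* ranged from 16.5 to 41.03 CPM in young ICH and from 14.9 to 35.7 CPM in aged ICH samples, with its lowest values in the same samples as the projection neuron sum. Its highest young ICH value was in sample 1, whose projection neuron sum (399 FPKM) was below that of sample 3 (574 FPKM).

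Among the GABA-A receptor subunits, 5 of the 9 tested were called lower in young and 4 in aged mice, and *Gabrb2*, *Gabrb1* and *Gabrg3* were called at both ages. *Gabrb2* encodes β2, a part of the most common GABA-A receptors of the brain. It was at 107, 174 and 120.3 CPM in young sham and 60.6, 72.5 and 43.5 in young ICH samples. In aged mice its CPM were 123, 90.8 and 133 in sham and 56.6, 69.1 and 46.99 in ICH samples. All 6 ICH samples were below all 6 sham samples. *Gabrb2* fell by 55.9% in young mice (log2FC = −1.18 ± 0.23 (SE), edgeR adjusted *P* = 0.00585) and fell by 50.2% in aged mice (log2FC = −1.01 ± 0.23 (SE), edgeR adjusted *P* = 0.0171), the largest falls among the members. The young call held without any single sample. The aged call was lost without aged ICH sample 1 or 3 or aged sham sample 1, up to 0.0711 without aged ICH sample 1.

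*Gabrb1*, which encodes β1, was at 167, 179 and 142 CPM in young sham and 122, 128 and 109 in young ICH samples, and at 152, 159.8 and 158 in aged sham and 111, 129 and 112 in aged ICH samples. There was no overlap between sham and ICH, and *Gabrb1* fell by 26.7% in young (log2FC = −0.45 ± 0.09 (SE), edgeR adjusted *P* = 0.00694) and fell by 24.97% in aged mice (log2FC = −0.41 ± 0.09 (SE), edgeR adjusted *P* = 0.0145). The young call held without any single sample, and the aged call was lost without aged ICH sample 1 or 3 or aged sham sample 2, up to 0.072 without aged ICH sample 1. *Gabrg3*, the γ3 gene, was at 45.1, 50.7 and 49.5 CPM in young sham and 29.2, 34.8 and 31.7 in young ICH samples, and at 35.8, 38.2 and 35.8 in aged sham and 23.3, 31.3 and 26.5 in aged ICH samples. Sham and ICH did not overlap at either age (log2FC = −0.60 ± 0.10 (SE), edgeR adjusted *P* = 0.00345 in young and log2FC = −0.44 ± 0.10 (SE), edgeR adjusted *P* = 0.02 in aged mice). The young call held without any single sample, and the aged call was lost without aged ICH sample 1 or 3 or aged sham sample 1 or 2, up to 0.0851 without aged ICH sample 1.

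The α subunits, which with the β subunits form the GABA binding site, were called by edgeR at 1 age only or not at all, while DESeq2 called *Gabra4* lower at both ages. *Gabra5*, whose receptors sit mostly outside synapses, was at 44.6, 47.2 and 53.9 CPM in young sham and 32.1, 39.97 and 25 in young ICH samples, and at 38, 31.4 and 35 in aged sham and 34.5, 25.6 and 30.7 in aged ICH samples. It fell by 33.4% in young mice (log2FC = −0.59 ± 0.16 (SE), edgeR adjusted *P* = 0.0246), and the aged groups overlapped (log2FC = −0.20 ± 0.16 (SE), edgeR adjusted *P* = 0.443). The call was lost without young ICH sample 1 or 3 or young sham sample 2 or 3, up to 0.0848 without young sham sample 3. *Gabra3*, the most abundant α subunit listed, was at 139, 168 and 162 CPM in young sham and 118, 143 and 92.7 in young ICH samples, which overlapped, and at 144, 141 and 138 in aged sham and 120.5, 103 and 119 in aged ICH samples, which did not. Its young call (log2FC = −0.41 ± 0.13 (SE), edgeR adjusted *P* = 0.0479) was lost in 9 of the 12 fits without 1 sample, all but those without young sham sample 1, young ICH sample 2 or aged ICH sample 2, up to 0.16 without young sham sample 2.

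*Gabra4* was the only member that edgeR called in aged mice and not in young mice, whereas DESeq2 called it at both ages. With δ, α4 forms receptors outside synapses that respond to ambient GABA, and both are highly expressed in striatal projection neurons. *Gabra4* was at 178, 168 and 164 CPM in young sham and 154, 104 and 117 in young ICH samples (log2FC = −0.44 ± 0.17 (SE), edgeR adjusted *P* = 0.0851), and at 166, 162 and 150.5 in aged sham and 78.9, 130.2 and 102 in aged ICH samples (log2FC = −0.62 ± 0.17 (SE), edgeR adjusted *P* = 0.0316). Neither age had overlapping groups. Its lowest values were in aged ICH samples 1 and 3 and young ICH sample 2, the 3 samples with the lowest projection neuron sums, and the part of these cells in the result was not tested. The call was lost without aged ICH sample 1 or 3 or any aged sham sample, up to 0.115 without aged ICH sample 1. *Gabrd*, the δ gene, was lowest in the same samples, at 39.9 and 49.4 CPM in aged ICH samples 1 and 3 and 49.7 CPM in young ICH sample 2. Sham samples were at 78.6 to 82.6 CPM in young and 61.7 to 83.2 CPM in aged mice. Young ICH samples 1 and 3 were at 83.2 and 58.3 CPM and aged ICH sample 2 at 62.8 CPM. Sham and ICH thus overlapped at both ages. Young ICH sample 1 was above every young sham sample in *Gabrd*, while its projection neuron sum (399 FPKM) was below all of theirs. *Gabrd* was not called (log2FC = −0.34 ± 0.19 (SE), edgeR adjusted *P* = 0.234 in young and log2FC = −0.55 ± 0.19 (SE), edgeR adjusted *P* = 0.0814 in aged mice). *Gabra2* and *Gabrg1* were not called by edgeR, though DESeq2 called *Gabra2* lower in young mice, with log2FC of −0.32 and −0.19 in young and −0.12 and −0.41 in aged mice. *Gabra4* and *Gabrb1* lie head to head on chromosome 5 (71569749 to 71658308 on the minus strand and 71658113 to 72149037 on the plus strand, GRCm38) and overlap at their starts. The sources used here do not say whether counting used the strand of reads, so reads from such overlaps are uncertain. In all, 24 of the 35 members overlap another annotated gene. For some of them, such as *Gria2*, the overlap is on the same strand only, where the strand of reads does not separate the genes.

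Of the GABA-B receptor pair, *Gabbr1* was called lower at both ages. It was at 866, 842 and 775 CPM in young sham and 716, 677 and 621 in young ICH samples, and at 763, 794 and 710.1 in aged sham and 568, 664 and 617 in aged ICH samples. The groups did not overlap, and *Gabbr1* fell by 18.9% in young (log2FC = −0.30 ± 0.08 (SE), edgeR adjusted *P* = 0.0266) and fell by 18.5% in aged mice (log2FC = −0.29 ± 0.08 (SE), edgeR adjusted *P* = 0.0381). The young call was lost without young sham sample 1 or 2 or young ICH sample 3 (up to 0.0875, without young sham sample 2), and the aged call without aged ICH sample 1 or 3, aged sham sample 1 or 2 or young sham sample 2 (up to 0.164, without aged ICH sample 1). *Gabbr2*, which carries the receptor to the surface and couples it to its G protein, was at 291, 376 and 359 CPM in young sham and 299.5, 286 and 185 in young ICH samples, and at 289, 247 and 282 in aged sham and 225, 192 and 233 in aged ICH samples. Young ICH sample 3 was far below the other young ICH samples, and young ICH sample 1 lay above the lowest young sham sample, whereas the aged groups did not overlap; *Gabbr2* was not called (log2FC = −0.41 ± 0.16 (SE), edgeR adjusted *P* = 0.0998 in young and log2FC = −0.33 ± 0.16 (SE), edgeR adjusted *P* = 0.206 in aged mice).

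**Figure D4:**
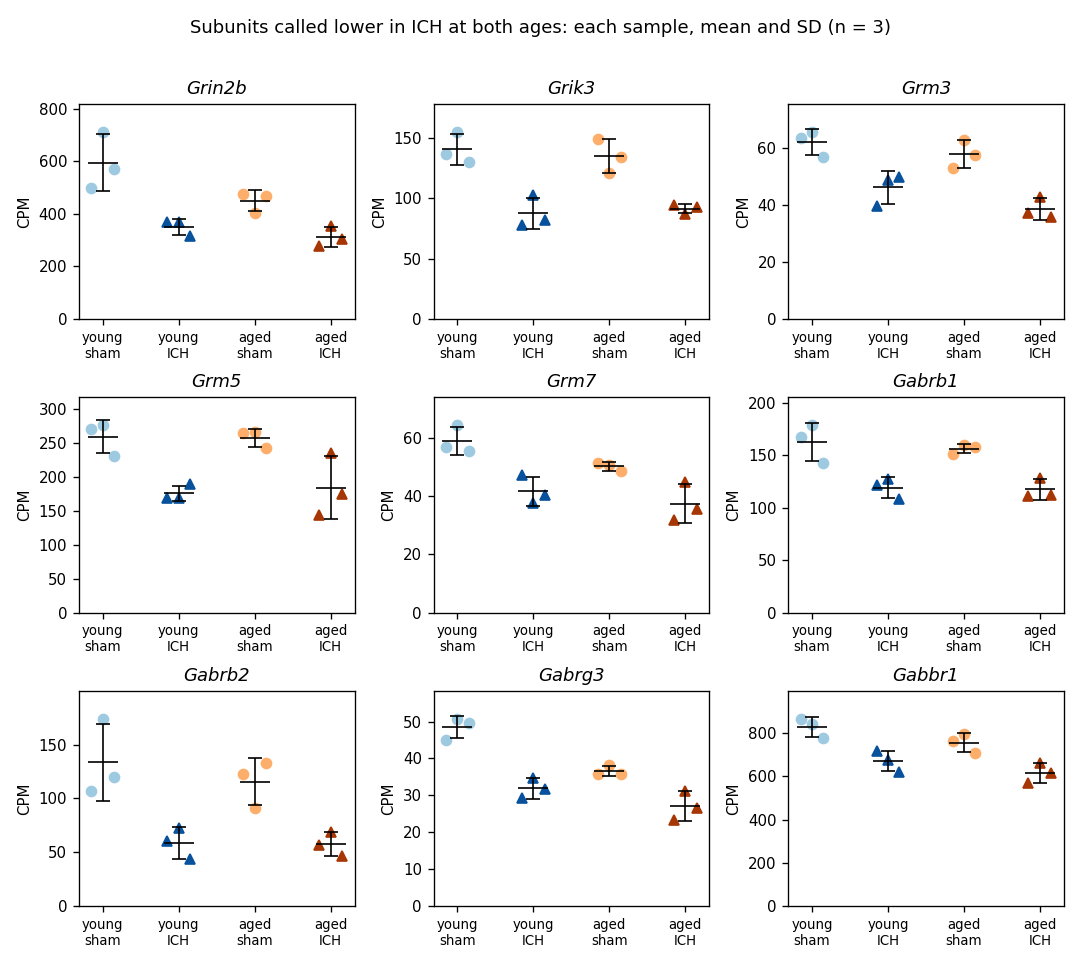
CPM of the 9 receptor subunits called lower in ICH at both ages, with each sample as a point and the mean and SD of the 3 samples of a group in black, on axes that start at 0. In each panel the ICH samples (triangles) lie below the sham samples (circles) of the same age, with *Gabrb2* falling from 107 to 174 in young sham to 43.5 to 72.5 CPM in young ICH samples.

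Genes that hold receptors at the synapse were also lower in part. Of all genes, 9.23% were called lower in young and 6.15% in aged mice, with median log2FC of 0.02 and 0.00. Of 13 auxiliary subunits of ionotropic glutamate receptors, 6 were called lower and 1 higher in young mice and 4 lower in aged mice, with medians of −0.49 and −0.38. *Neto1* and *Neto2*, the auxiliary subunits of kainate receptors, fell at both ages (log2FC = −0.95, edgeR adjusted *P* = 0.00343 and log2FC = −0.89, edgeR adjusted *P* = 0.00251 in young, log2FC = −0.75, edgeR adjusted *P* = 0.0137 and log2FC = −0.72, edgeR adjusted *P* = 0.00974 in aged mice). *Cacng3*, a TARP that carries AMPA receptors, fell as well (log2FC = −0.76, edgeR adjusted *P* = 0.00147 in young and log2FC = −0.44, edgeR adjusted *P* = 0.0184 in aged mice), whereas the TARP *Cacng5* rose in young mice (log2FC = 1.28, edgeR adjusted *P* = 0.0072). Of 18 excitatory postsynaptic scaffold genes, 6 were called lower and 1 higher in young mice and 5 lower in aged mice, with medians of −0.21 and −0.20. *Homer1*, which binds *Grm5* protein, and *Dlgap2* were the lowest (log2FC = −0.93, edgeR adjusted *P* = 0.00137 and log2FC = −0.73, edgeR adjusted *P* = 0.00509 in young, log2FC = −0.64, edgeR adjusted *P* = 0.00841 and log2FC = −0.55, edgeR adjusted *P* = 0.025 in aged mice).

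On the inhibitory side, 4 of 8 scaffold and GABA-B auxiliary genes were called lower in young and 3 in aged mice, with medians of −0.43 and −0.35. These were 50% and 37.5% of the list, against 9.23% and 6.15% of all genes. *Gphn*, the gene of gephyrin that anchors GABA-A receptors, fell at both ages (log2FC = −0.41, edgeR adjusted *P* = 0.00176 in young and log2FC = −0.36, edgeR adjusted *P* = 0.00536 in aged mice). *Gad1*, which makes GABA, was called lower at both ages (log2FC = −0.62, edgeR adjusted *P* = 0.00711 in young and log2FC = −0.64, edgeR adjusted *P* = 0.0104 in aged mice). Of 7 genes of GABA synthesis and transport, 1 was called lower in young and 2 in aged mice (14.3% and 28.6%). Of 9 genes of glutamate synthesis and transport, 2 were called lower and 1 higher in young mice and 1 lower and 1 higher in aged mice (22.2% and 11.1% lower). Against 9.23% and 6.15% called lower of all genes, these counts are too small to set either list apart. *Glul*, the glutamine synthetase gene, fell in aged mice (log2FC = −0.37, edgeR adjusted *P* = 0.0326), while *Slc1a4*, a neutral amino acid carrier, rose at both ages (log2FC = 0.49, edgeR adjusted *P* = 0.00775 and log2FC = 0.42, edgeR adjusted *P* = 0.0209). The medians of these last lists were −0.18 and −0.46 for GABA and −0.30 and −0.28 for glutamate.

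The makeup of the receptor pools was compared by 4 measures in 3 against 3 samples, which cannot reach a *P* under 0.05. *Gria2* made up 31.0 to 34.4% of AMPA subunit FPKM in young sham, 31.5 to 33.7% in young ICH, 33.9 to 34.8% in aged sham and 34.3 to 35.3% in aged ICH samples. The mean difference between aged ICH and young ICH samples, 1.957 percentage points, gave *P* = 0.1 by a two-sided exact permutation test, the smallest that 3 against 3 samples allow, and an adjusted *P* of 0.8 over the 16 comparisons of this kind. *Grin2a* took 40.8 to 45.9% of the sum of *Grin2a* and *Grin2b* in young sham and 39.9 to 46.2% in young ICH samples, and 43.1 to 45.4% and 38.8 to 46.7% in aged mice. *Gabra2* took 13.2 to 14.5% of the α subunits listed in young sham and 13.3 to 18.3% in young ICH samples, and 13.9 to 16.0% and 14.6 to 19.5% in aged mice. The log2 ratio of *Grm5* to *Grm3* FPKM was 0.28 to 0.34 in young sham, 0.04 to 0.35 in young ICH, 0.32 to 0.57 in aged sham and 0.20 to 0.71 in aged ICH samples. The remaining 15 comparisons had exact permutation *P* of 0.2 to 1.0. Shares within the kainate subunits and within all GluN2 subunits were chosen after the values were seen and were not tested. *Grik3* made up 22.3 to 24.8% of kainate subunit FPKM in young sham and 16.7 to 18.9% in young ICH samples, and 21.4 to 26.2% in aged sham and 17.7 to 21.5% in aged ICH samples. *Grik5* made up 54.0 to 56.4% and 59.5 to 61.6% in young mice and 50.8 to 55.6% and 55.7 to 59.0% in aged mice. *Grin2d* made up 2.21 to 4.01% of GluN2 subunit FPKM in young sham and 4.79 to 6.88% in young ICH samples, and 3.34 to 4.47% in aged sham and 4.82 to 5.98% in aged ICH samples. The *Grik5* and *Grin2d* shares were higher in every ICH sample than in every sham sample of the same age, and the *Grik3* share was lower without overlap in young mice and with overlap in aged mice.

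No receptor subunit was called between aged and young mice by edgeR. In aged sham vs. young sham mice 0 of 33 were called, against 0.102% of all genes, and 4 had an unadjusted *P* under 0.05, against 12.3%. All 4 were lower in aged mice: *Gabrg3* (log2FC = −0.41 ± 0.10 (SE), edgeR adjusted *P* = 0.186), *Gabra5* (log2FC = −0.48 ± 0.16 (SE), edgeR adjusted *P* = 0.268), *Grin2b* (log2FC = −0.40 ± 0.13 (SE), edgeR adjusted *P* = 0.271) and *Grm8* (log2FC = −0.48 ± 0.17 (SE), edgeR adjusted *P* = 0.288). This number is close to the share of all genes at that threshold and does not set the members apart. In each of the 4 the 3 aged sham samples were below the 3 young sham samples, as in 8 of the 33 members in all. The share of all genes with such groups is not given here. DESeq2 called 1 member, *Gabrg3*, and limma on FPKM 0. The median log2FC of the members was −0.11, against 0.01 for all genes tested, and 28 of the 33 had a log2FC below 0. In aged ICH vs. young ICH mice 0 were called, against 0.0558% of all genes, and 2 had an unadjusted *P* under 0.05, against 9.54%. These were *Grm3* (log2FC = −0.26 ± 0.11 (SE), edgeR adjusted *P* = 0.478) and *Gabrg3* (log2FC = −0.24 ± 0.10 (SE), edgeR adjusted *P* = 0.5), both lower in aged mice with overlapping samples. DESeq2 and limma called 0 here. The median log2FC of the members was −0.13, against −0.0046 for all genes tested, and 26 of the 33 had a log2FC below 0. Neither of these age shifts of the members as a set was tested.

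**Figure D5:**
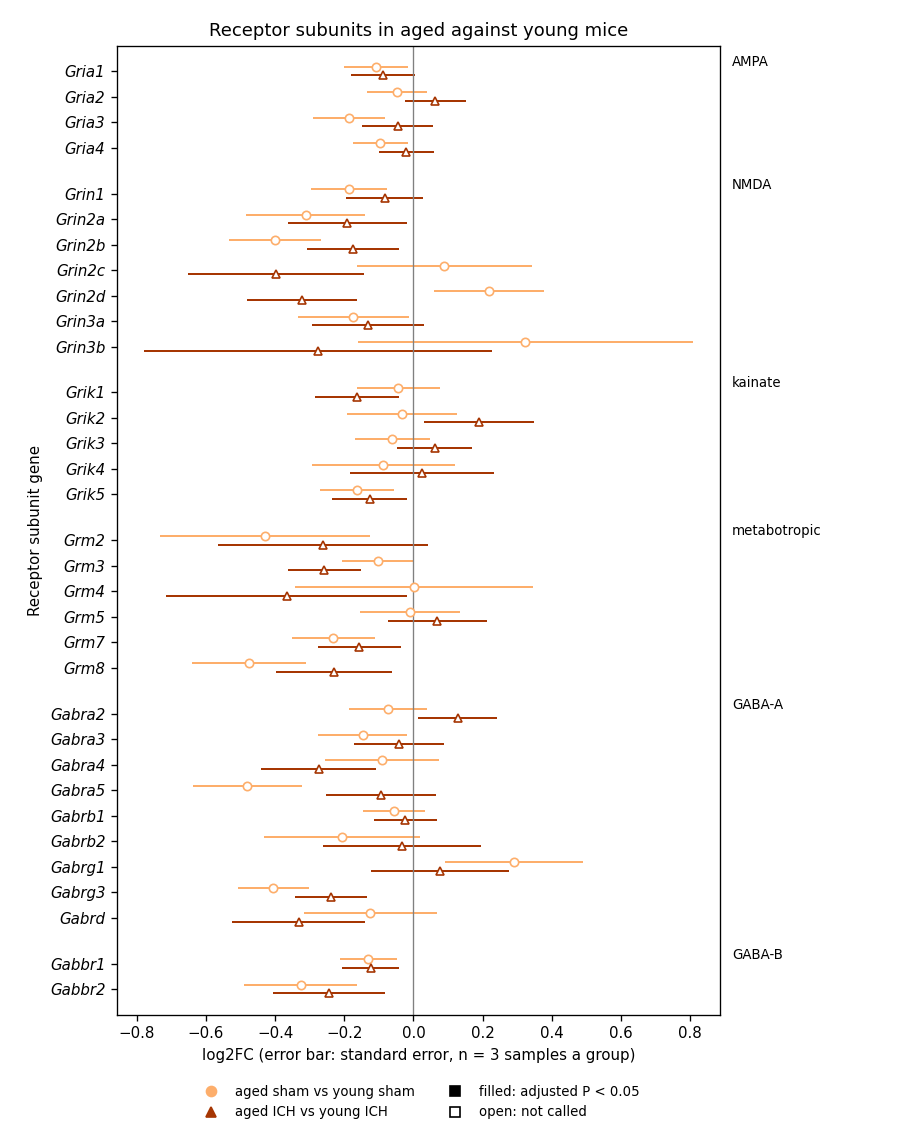
log2FC of the 33 tested receptor subunits in aged against young mice (x axis), for sham (light orange circles) and ICH (brown triangles), with the standard error. All symbols are open, since no member was called, and most sham values lie left of 0, with *Gabra5*, *Grm8*, *Gabrg3* and *Grin2b* between −0.48 and −0.40.

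The ICH response of the receptor subunits was not shown to differ between ages. The interaction of age and ICH called 0 members by edgeR, DESeq2 and limma on FPKM, as it called 0.00% of all genes by edgeR, and 1 member, against 2.82% of all genes, had an unadjusted *P* under 0.05. This was *Grin2d*, with log2FC = −0.54 ± 0.23 (SE), an edgeR adjusted *P* of 1, whose log2FC was 0.43 in young and −0.11 in aged mice. The interaction log2FC of the members ran from −0.60 for *Grin3b* to 0.39 for *Gabra5*. By edgeR, 9 members were called lower at both ages, 10 in young mice only, 1 (*Gabra4*) in aged mice only and 13 at neither age, and for the 11 called at 1 age the other age had a log2FC below 0 too. DESeq2 called 16 at both ages, 6 in young mice only, 2 (*Grin2c* and *Gabrd*) in aged mice only and 9 at neither age. For limma on FPKM these counts were 5, 8, 1 and 19.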

How the data were processed

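RNA-seq was analysed from the 12 samples, grouped by the age and surgery in their labels. The authors aligned paired reads to GRCm38.p6 with Hisat2 and counted them per gene with FeatureCounts. The deposited table holds raw read counts and FPKM per gene and sample. The sources used here state neither the strand setting nor the treatment of reads with several alignments. Each sample held 28410896 to 37785160 counts.

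The main test was the quasi-likelihood test of edgeR 4.0.16 in R 4.3.3, on TMM-normalized counts of all 12 samples in one fit of 4 groups, for the 21495 genes passing filterByExpr (minimum count 10). A call is a Benjamini-Hochberg adjusted *P* under 0.05 over all genes tested. CPM use the TMM-normalized library size. SE were computed from the log2FC and the F statistic. Shares of FPKM were compared by two-sided exact permutation tests. The script was tested on simulated data. Alternatives were DESeq2 1.42.0, limma 3.58.1 on log2(FPKM + 0.1), other normalizations, no filter, a replicate block and leaving out each sample. Promoters came from RefSeq, gene positions from GENCODE vM21. Per-sample values are given for members called in any comparison and the 6 members with the highest mean FPKM. Sample values of *Grin2d*, *Grin2c*, *Gabrd* and *Grm4*, and the genes named from partner and marker lists, were chosen after their values were seen. Members and lists were chosen with earlier results of these data known. Protein sequences were not used, and some genes of the partner lists are not reported here.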

Additional observations from a re-analysis of the deposited data

How the results depend on the processing

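None of the 29 calls of lower RNA in ICH changed direction under any setting, but 162 of the 609 repeated fits of these calls lost the threshold. The count of members called lower in aged ICH mice, 10 in the report, was 18 by DESeq2 and 6 by limma on log2(FPKM + 0.1), whose median over all genes was 0.10 in young and 0.07 in aged mice. By the DEG rule of the study the counts were 6 in young and 4 in aged mice. With only the groups compared in the fit, the young count fell from 19 to 10. Leaving out 1 sample gave 5 to 20 members called lower and 0 to 1 called higher in young ICH mice and 2 to 15 called lower in aged ICH mice. With the ICH samples of high choroid plexus sum left out, chosen after seeing the data, the counts were 11 and, with 1 aged ICH sample remaining, 1, and with those of lowest projection neuron sum left out the aged count was 2. In aged sham vs. young sham, DESeq2 called 1 member lower. The cause of these changes was not tested. Same-numbered samples deviated from their group means with correlations of −0.45 to 0.23, so the replicate numbers do not pair samples; with the replicate number as a block, 17 members were called lower in young and 9 in aged mice, and 4 calls were lost (*Grm8* and *Gabra3* in young, *Grm7* and *Gabra4* in aged mice).

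Leaving out 1 sample changed the sign in 7 of the 16 comparisons of shares and ratios and kept it in 9, among them the *Gria2* share in aged ICH vs. young ICH (1.36 to 2.44). Among those that changed sign, differences of the *Grin2a* share, in percentage points, ran from −0.0167 to 3.10 for young ICH vs. young sham, from −1.56 to 2.36 for aged ICH vs. aged sham and from −1.81 to 2.73 for aged ICH vs. young ICH. For the *Gria2* share they ran from −1.55 to 0.136 in young and from −0.0748 to 0.424 in aged mice, for the *Gabra2* share in young mice from −0.321 to 2.17, and for the log2 ratio of *Grm5* to *Grm3* in aged mice from −0.0409 to 0.215. The comparison of protein sequences was not run. Depth limits what can be said of *Grin3b*, *Gabra6* and *Grm6*.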

Other observations

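*Grm6* had 0 counts in all 6 sham samples and 2 or 3 counts in 4 of the 6 ICH samples. Each of these counts is within the 3 counts that a count of 0 allows in 1 sample. The difference over all samples together was not tested.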
